A study of Mus musculus with 8 samples.

Results

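The response of mouse embryonic stem (ES) cells to degradation of the transcription factor OCT4 was set against their response to withdrawal of the cytokine LIF, gene by gene. All 8 libraries of the series, 2 in each of 4 groups, entered this comparison. Its measure is a difference of differences on the log2 scale: the change with dTAG over DMSO, called the OCT4 arm, minus the change without LIF over with LIF, called the LIF arm. A positive value means that a gene stood relatively higher after OCT4 degradation than after LIF withdrawal. Both lines are V6.5, a C57BL/6-129 ES cell line kept in 2i medium, which holds inhibitors of the kinases MEK and GSK3. In the OCT4 arm, cells with a fusion of OCT4 to the FKBP degradation tag received DMSO or the degrader (written dTag9 in the labels) for 24 h. In the LIF arm, untagged V6.5 cells (WT) were kept with normal LIF or without LIF for 5 days. The labels do not say whether the inhibitors stayed in the medium during those 5 days, nor whether the tagged line is 1 clone. Line, tag, solvent and length of treatment differ between the arms and cannot be told apart from the agent, and no untagged cells received the degrader.

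OCT4 acts with SOX2 at composite sites that contain the octamer motif and holds ES cells in the pluripotent state, in part by keeping trophoblast genes silent. LIF signals through its receptor and JAK kinases to STAT3, which keeps up the naive state through factors such as Klf4 and Tfcp2l1. Cells that leave the naive state pass through formative and primed states, marked by factors such as Pou3f1 and the ZIC family, before they take up a lineage. Loss of OCT4 and loss of LIF thus bear on the pluripotent state by different routes. Self-renewal itself was not measured here.

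Counted reads per library ranged from 7221451 to 11447468, and 10311 of 24921 gene symbols had enough reads to be tested. The summed level of 10 ES cell markers was 7485 to 8206 CPM (counts scaled to a common library total) in the 4 control libraries. It was 2554 and 2569 CPM with dTAG and 2334 and 2297 CPM without LIF. Tfcp2l1 held the largest part of the control sums, at 3599 and 3548 CPM with DMSO and 3205 and 3152 with LIF. Of the markers read, Sall4 and Tdgf1 did not fall without LIF, and the others did. Sall4 stood at 159 and 154 CPM with LIF and 156 and 156 without, and Tdgf1 at 664 and 761 and at 1143 and 1136 CPM. The deposited counts are per RefSeq transcript, and 42.5% of reads were left as ambiguous. Nanog had 0 reads in every library, and neither Nanog nor Esrrb could be tested, so their absence below is no measurement of these genes. The other genes with several transcripts, among them Pou5f1, Igf2, Grin1, Gad1, Cdkn1a, Khdc3, Pfkp, Slc38a4 and Slc7a3, are sums over their transcripts and may miss ambiguous reads. No label ties the 2 libraries of a group to separate cultures. The p-values then rest on library-to-library spread, which may be technical. The 10 fibroblast markers summed to 23.4 and 21.3 CPM with DMSO, 19.2 and 16.3 with dTAG, 9.18 and 9.29 with LIF and 21.0 and 20.0 without LIF. Among them Col1a2, a collagen I chain, stood at 0.530 and 0.823 CPM with LIF and 6.66 and 7.09 without LIF. Of 5 blood markers only Cd3e was read. It stood at 47.9 and 47.0 CPM with DMSO, 22.0 and 25.8 with dTAG, 16.9 and 20.6 with LIF and 0.768 and 1.23 without LIF. Hbb-b1 and Lyz2 had 0 reads. Dcn, Postn, Ptprc and Hba-a1 also had 0 reads, but each has several transcripts, so that, as for Nanog, this is no measurement. The part of these markers in the results was not tested. In bulk RNA, fewer cells of a type and less RNA per cell cannot be told apart. The Pou5f1 transcript, from which OCT4 is made, stood at 77.5 and 77.8 CPM with DMSO, 84.6 and 90.2 with dTAG, 425 and 336 with LIF and 205 and 170 without LIF. Its transcript was 2.02-fold lower without LIF (adjusted p = 3.5e-11) and was not called in the OCT4 arm, where the treatment acts on the protein. That call was gained with a replicate block (adjusted p = 0.044) and without the second WT library with LIF (adjusted p = 0.048).

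The arms shared part of their response, and LIF withdrawal moved more genes. Of the 10311 tested genes, 5671 (55%) had a called difference of responses, 2946 (28.6%) relatively higher and 2725 (26.4%) relatively lower after OCT4 degradation, by edgeR's quasi-likelihood test at an adjusted p of 0.05. The OCT4 arm alone had 4175 called genes (40.5%), with a median absolute log2 change of 0.31. In the LIF arm the test called 7056 genes (68.4%), with a median absolute log2 change of 0.61. At 2-fold or more, 1315 genes (12.8%) changed in the OCT4 arm, 5.81% of those tested upward and 6.94% downward. In the LIF arm this held for 1712 genes upward (16.6%) and 1750 downward (17%). In all, 3462 (33.6%) changed in the LIF arm and 873 (8.47%) in both. These 873 made up 66.4% of the first set and 25.2% of the second. Across the 10311 genes the log2 changes of the arms correlated at Pearson r = 0.23 and Spearman rho = 0.23. The arms have separate control libraries but share 1 scaling and 1 estimate of spread, and genes are not independent replicates, so these are descriptions.

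Genes changed at least 2-fold were sorted into classes. Moving alike were 265 genes that rose in both arms (2.57% of those tested) and 401 that fell in both (3.89%). Moving in opposite directions were 110 genes that rose with OCT4 degradation and fell without LIF (1.07%) and 97 that did the reverse (0.941%). A gene was put in 1 arm only when it changed in that arm, stayed under 0.5 in absolute log2 change in the other and had a called difference. This held for 73 genes up (0.708%) and 88 down (0.853%) in the OCT4 arm, and for 538 up (5.22%) and 675 down (6.55%) in the LIF arm. A small change in the other arm can still be called, and for 11, 6, 118 and 26 of these genes the SE there was over 0.5, so that their change in that arm was not resolved. The other genes fell between these definitions. With a 1.5-fold bound all 8 classes grew by more than 1.5 times, so the counts belong to the thresholds. The control groups were themselves at least 2-fold apart, with a called difference, for 980 tested genes (9.50%). In the opposite classes this was so for 28 of 110 and 31 of 97 genes, and in the classes moving alike for 69 of 265 and 102 of 401. In the OCT4 arm only it was so for 15 of 73 and 19 of 88, and in the LIF arm only for 80 of 538 and 87 of 675. The part that this starting level played in the difference was not tested.

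**Figure D1:**
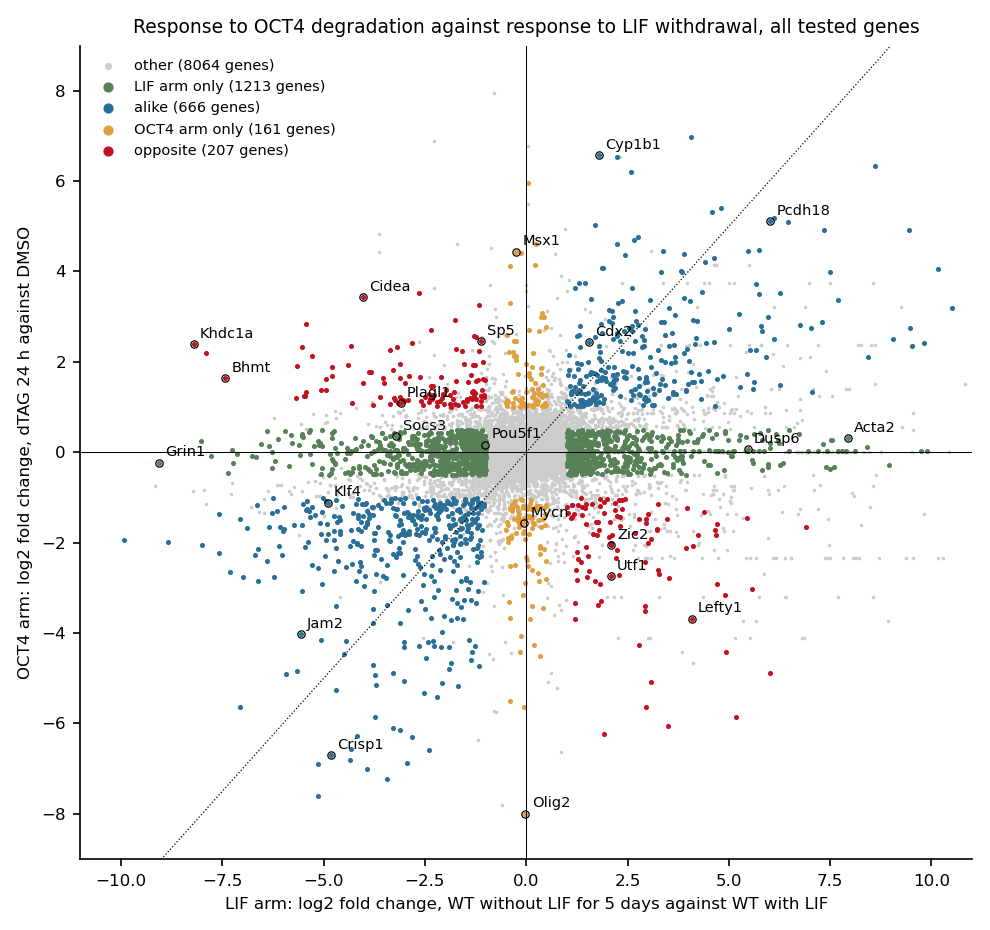
Each point is 1 of the 10311 tested genes, with the log2 fold change of the LIF arm (horizontal) against that of the OCT4 arm (vertical), coloured by class; the dotted line marks equal change. The 265 and 401 genes that moved alike lie in the upper right and lower left, and the 110 and 97 that moved oppositely in the upper left and lower right.

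Regulators and markers of naive pluripotency fell in both arms. Of 19 tested naive genes, 16 were called lower in the OCT4 arm and 18 in the LIF arm, 16 of them in both; over all tested genes the lower calls were 20.3% and 34.4%. The list's median log2 change was -1.12 in the OCT4 arm and -3.05 in the LIF arm, against 0 and -0.02 over all tested genes. The difference was called higher for 16 of the 19, that is, the fall was deeper after 5 days without LIF than after 24 h of OCT4 degradation, against 28.6% of all tested genes called higher. Manba, a lysosomal enzyme on the list, is an exception, with a 1.98-fold and a 1.87-fold fall, and Mael, a germline factor, rose in the LIF arm. Tfcp2l1, a transcription factor downstream of STAT3, was read at 3599 and 3548 CPM with DMSO, 1028 and 1026 with dTAG, 3205 and 3152 with LIF and 91.4 and 100 without LIF. Its groups did not overlap in either arm, and it fell 3.48-fold in the OCT4 arm and 33.3-fold in the LIF arm (log2 difference 3.26, SE 0.08, adjusted p = 1.9e-21). Klf4, a reprogramming factor and STAT3 target, had 594 and 576 CPM with DMSO, 269 and 272 with dTAG, 373 and 419 with LIF and 14.0 and 12.1 without LIF. It fell 2.16-fold and 29.8-fold. Sox2, the DNA-binding partner of OCT4, fell 2.24-fold and 4.12-fold, and Klf2, another naive factor, 4.65-fold and 8.70-fold.

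Among signalling genes of pluripotent cells, Lefty2 and Sfrp1 fell farther in the OCT4 arm, and for Fgf4 no difference was called. Fgf4, a secreted growth factor whose enhancer is a textbook OCT4 and SOX2 target, was read at 379 and 403 CPM with DMSO and 76.7 and 82.7 with dTAG, and at 773 and 801 CPM with LIF and 158 and 155 without LIF. The falls were 4.91-fold and 5.01-fold, and their log2 difference was 0.03 (SE 0.08, adjusted p = 0.79). Its control level was lower in the tagged line (log2 difference -1.01), so the treated libraries of the arms did not overlap either. Lefty2, an inhibitor of Nodal, went from 298 and 291 to 8.10 and 13.1 CPM with dTAG and from 408 and 398 to 107 and 110 CPM without LIF, a 27.8-fold and a 3.73-fold fall (log2 difference -2.90, SE 0.13). Sfrp1, a secreted Wnt antagonist, fell 40.3-fold and 5.72-fold.

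Zfp42 (also called Rex1), a marker of naive cells, is shown with its promoter because it holds the octamer ATGCAAAT that OCT4 recognises. Zfp42 was read at 503 and 516 CPM with DMSO, 237 and 232 with dTAG, 472 and 453 with LIF and 69.6 and 64.2 without LIF, a 2.17-fold and a 6.88-fold fall. Cdx2, a trophoblast factor, also holds an octamer and went the other way: 30.7 and 35.0 CPM with DMSO, 192 and 169 with dTAG, 0.530 and 1.06 with LIF and 2.73 and 1.5 without LIF. It rose 5.43-fold in the OCT4 arm and 2.94-fold in the LIF arm, where all 4 libraries were low, and its control levels were 5.43 apart on the log2 scale (adjusted p = 1.5e-15). The windows below are from RefSeq promoter tables of build GRCm38.p6, written in the direction of the gene, with the octamer or its reverse complement in capitals. They lie on chr8:43307164-43307219 (minus strand) and chr5:147307365-147307420 (minus strand), and the match begins 186 and 147 bases before the start site.
Zfp42: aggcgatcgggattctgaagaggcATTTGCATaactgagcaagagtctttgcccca
Cdx2: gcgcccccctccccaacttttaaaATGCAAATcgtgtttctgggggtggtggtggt
Promoters here are the 250 bases before and 50 after each start site, searched on both strands. A gene was counted when any of its promoters held the letters. The octamer was found in 1.97% of the 27025 genes in the table and in 1.63% of the 8050 tested genes with a promoter there. It was found in 4 of 87 such genes (4.60%) up with OCT4 degradation and down without LIF and in 3 of 70 (4.29%) of the reverse class. Among genes down in both arms it was found in 8 of 312 (2.56%), and among genes up in both in 5 of 197 (2.54%). For the OCT4 arm only it was found in 0 of 61 genes that rose and 2 of 55 (3.64%) that fell. For the LIF arm only it was found in 7 of 405 (1.73%) that rose and 10 of 537 (1.86%) that fell. A match describes these letters and shows no binding.

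The strongest falls shared by both arms at a mean of at least 5 CPM, ranked by the smaller of the 2 changes, were those of Pramel30, Crisp1, Hal and Pou2f3. Pramel30, of a family expressed in germ cells and early embryos, was read at 11.4 and 15.1 CPM with DMSO, 0.657 and 0.222 with dTAG, 14.9 and 11.8 with LIF and 0.171 and 0.273 without LIF. Hal, which encodes histidine ammonia-lyase, had 41.0 and 42.1, 2.08 and 1.66, 13.4 and 13.2, and 0.768 and 0.273 CPM in the same order, a 22.1-fold and a 22.6-fold fall. Pou2f3, a POU factor of another subfamily than OCT4, fell 18.1-fold and 21.9-fold. Crisp1, a secreted protein known from the epididymis, held 131 reads over the DMSO libraries and 1 over the dTAG libraries, a 129-fold ratio (exact 95% counting interval 22.7 to 5120). Without LIF it fell 28-fold. Preimplantation genes were part of this class: of 13 tested, 5 fell at least 2-fold in both arms, against 3.89% of tested genes, among them the maternal-effect genes Khdc3 (2.41-fold and 43.2-fold) and Ooep (2.36-fold and 9.75-fold). Prdm14, which keeps DNA methylation low in naive cells, fell 2.67-fold and 16.4-fold, and Dppa3, which shields the genome from remethylation, 1.89-fold and 4.97-fold. Jam2, a junctional adhesion molecule, fell 16.2-fold in the OCT4 arm and 47.4-fold in the LIF arm.

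Genes of the integrated stress response and of amino acid supply also fell in both arms. In this pathway the factor ATF4 switches on amino acid transporters, amino acid synthesis and tRNA synthetases. Of 29 tested members, 20 were called lower in the OCT4 arm and 21 in the LIF arm, against 20.3% and 34.4% of tested genes, and 1 was called higher in each. The median log2 changes were -1.15 and -1.12, and 9 fell at least 2-fold in both arms, against 3.89% of tested genes. The difference was called higher for 7 and lower for 9, near the 28.6% and 26.4% of all tested genes. Shown are the members with an upstream match to the ATF4-CHOP element TGATGNAA that were classed as down in both arms or in 1 arm only. Asns and Gars also held an upstream match but were in none of the 8 classes. The element or its reverse complement is in capitals.
Pck2: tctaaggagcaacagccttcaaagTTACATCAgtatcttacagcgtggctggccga
Chac1: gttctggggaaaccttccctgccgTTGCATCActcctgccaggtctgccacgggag
Nupr1: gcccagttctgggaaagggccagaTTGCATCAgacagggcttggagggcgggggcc
Atf3: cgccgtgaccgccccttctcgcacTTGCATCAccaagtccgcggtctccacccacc
Slc7a11: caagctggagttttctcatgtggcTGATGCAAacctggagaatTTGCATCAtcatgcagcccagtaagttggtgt
Aars: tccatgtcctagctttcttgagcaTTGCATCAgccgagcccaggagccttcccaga
Their GRCm38.p6 positions are chr14:55540139-55540194 (plus strand), chr2:119351025-119351080 (plus), chr7:126625549-126625604 (minus), chr1:191183412-191183467 (minus), chr3:50443629-50443703 (minus) and chr8:111033706-111033761 (plus). Of the 23 members with a promoter in the table, 9 (39.13%) held the element, against 2.67% of tested genes and 4.51% of the 27025 genes in the table; the list was drawn up from known ATF4 targets. The second Slc7a11 match overlaps an octamer, since TGATGCAA and ATGCAAAT share letters.

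Pck2, a mitochondrial enzyme of gluconeogenesis, fell in both arms, and the difference did not pass. It had 121 and 125 CPM with DMSO, 31.4 and 28.4 with dTAG, 337 and 290 with LIF and 89.0 and 90.5 without LIF, a 4.12-fold and a 3.5-fold fall (log2 difference -0.23, SE 0.11, adjusted p = 0.084). Chac1, which degrades glutathione, fell farther in the OCT4 arm, with 25.7 and 24.0, 2.63 and 3.22, 43.3 and 47.9, and 19.4 and 20.7 CPM in the same order, a fall of 8.44-fold against 2.28-fold (adjusted p of the difference 4.2e-08). Nupr1, a small stress-induced regulator, showed the reverse order, 2.67-fold against 26.8-fold. Atf3, a stress-induced transcription factor, was lowered in the OCT4 arm only: it was read at 12.9 and 13.5 CPM with DMSO, 1.75 and 1.77 with dTAG, 28.9 and 28.3 with LIF and 28.9 and 26.5 without LIF. Slc7a11, the cystine transporter, followed Atf3, with a 5.22-fold fall in the OCT4 arm and a log2 change of 0.02 (SE 0.16) in the LIF arm. Phgdh, the first enzyme of serine synthesis, fell 3.14-fold in the OCT4 arm and had a log2 change of -0.17 (SE 0.09, adjusted p = 0.11) in the LIF arm. Slc7a5, a transporter of large neutral amino acids, fell 2.22-fold and 1.28-fold. Aars, the alanyl-tRNA synthetase, fell 1.39-fold in the OCT4 arm and 2.22-fold in the LIF arm. Ddit4, an inhibitor of mTORC1, fell 2.54-fold in the LIF arm and was not called in the OCT4 arm. Control levels of Pck2, Chac1, Nupr1, Atf3, Slc7a11, Phgdh, Slc7a5 and Ddit4 were lower in the tagged line. Their log2 differences ran from -1.37 (Nupr1) to -0.80 (Slc7a5), with -1.13 for Ddit4. Ddit4 stood at 134 and 138 CPM with DMSO, 302 and 294 with LIF and 118 and 117 without LIF.

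Many trophoblast and some epithelial genes rose in both arms. At a mean of at least 5 CPM the 4 with the largest shared rise were Pcdh18, Ptn, Krt7 and Tmprss2. All 4 were read at a few CPM or less in controls and reached that mean through the treated libraries. Pcdh18, a protocadherin, was read at 0.140 and 0.352 CPM with DMSO, 9.96 and 9.65 with dTAG, 0.265 and 0.353 with LIF and 18.7 and 22.9 without LIF, a 34.6-fold and a 65.1-fold rise. Ptn, the secreted growth factor pleiotrophin, went from 0.983 and 1.23 to 47.7 and 43.4 CPM with dTAG and from 0.618 and 0.471 to 12.8 and 14.6 CPM without LIF. Tmprss2, a membrane serine protease of epithelia, rose 18.6-fold and 21.1-fold. For Pcdh18, Ptn and Tmprss2 the difference of responses did not pass. Their log2 differences were -0.91, 0.73 and -0.18, with SEs of 0.89, 0.55 and 0.52, so equal rises were not shown. Krt7, a keratin of simple epithelia and trophoblast, had 0.281 and 0.616 CPM with DMSO, 10.4 and 11.3 with dTAG, 2.03 and 1.06 with LIF and 73.7 and 69.1 without LIF. Its difference did not pass (log2 difference -1.02, adjusted p = 0.16), but passed without the first WT library with LIF (adjusted p = 0.047).

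Of 23 tested trophoblast genes, 15 were called higher in the OCT4 arm and 18 in the LIF arm, against 20.1% and 34% of tested genes, and 3 and 4 lower, against 20.3% and 34.4%. At 2-fold or more, 13 rose and 2 fell in both arms, against 2.57% and 3.89% of tested genes. Of 20 tested genes of epithelial junctions and keratins, 13 were called higher and 3 lower in the OCT4 arm and 16 and 0 in the LIF arm, and 4 rose at least 2-fold in both. Krt8 and Krt18, partner keratins of the first embryonic epithelium, rose far more in the LIF arm: Krt18 had 7.58 and 7.04 CPM with DMSO, 13.7 and 14.1 with dTAG, 7.68 and 8 with LIF and 878 and 823 without LIF. Its rises were 1.91-fold and 109-fold, and those of Krt8 2.94-fold and 49.0-fold. Cldn6, a tight-junction claudin, rose 4.31-fold and 12.7-fold. The RNA-binding protein gene Lin28a, which blocks the maturation of let-7 microRNAs, rose 5.36-fold and 21.6-fold, while its relative Lin28b rose in the LIF arm only, 18.9-fold, with a log2 change of 0.30 (SE 0.13, adjusted p = 0.072) in the OCT4 arm. Of the 265 genes up in both arms, the difference passed for 109 (1.06% of tested genes), with the larger rise in the LIF arm for 88 (0.853%) and in the OCT4 arm for 21 (0.204%). Of the 401 down in both arms it passed for 220 (2.13%), with 175 (1.7%) and 45 (0.436%) in the same order.

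The 21 genes with the larger shared rise in the OCT4 arm included Cyp1b1, Phlda1 and Phlda2. Cyp1b1, a cytochrome P450 known as a target of the aryl hydrocarbon receptor, was read at 1.12 and 1.76 CPM with DMSO, 145 and 147 with dTAG, 1.77 and 2.59 with LIF and 6.57 and 8.73 without LIF. It rose 95.7-fold and 3.49-fold (log2 difference 4.78, SE 0.39, adjusted p = 8.2e-11). Phlda2, an imprinted gene that restrains placental growth, went from 16.0 and 14.0 to 256 and 241 CPM with dTAG and from 12.1 and 11.8 to 45.6 and 42.1 CPM without LIF. Egr1, an immediate early factor, rose 13.3-fold and 2.74-fold, with control levels that were lower in the tagged line, 1.82 and 3.52 CPM against 20.6 and 42.2 CPM.

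Among the genes that moved in opposite directions, those that fell with OCT4 degradation and rose without LIF included factors of formative and primed pluripotency. Of 18 tested formative and primed genes, 15 had a difference called lower and 0 higher, against 26.4% and 28.6% of tested genes. Their median log2 change was -0.43 in the OCT4 arm and 3.61 in the LIF arm. In the OCT4 arm alone the list was mixed, with 4 members called higher and 8 lower, against 20.1% and 20.3% of tested genes, and 4 of the 18 met the 2-fold definition of opposite change, against 0.941%. Pou3f1 (OCT6), a POU factor of the formative state, was read at 4.77 and 3.70 CPM with DMSO, 0.766 and 1.11 with dTAG, 9.53 and 8.82 with LIF and 145 and 140 without LIF. It fell 4.35-fold in the OCT4 arm and rose 15.4-fold in the LIF arm. Zic2 and Zic5, zinc-finger transcription factors, followed this pattern. Zic2 had 96.4 and 97.4, 25.0 and 21.7, 49.4 and 67.2, and 241 and 252 CPM in the same order, a 4.15-fold fall and a 4.27-fold rise, and Zic5 fell 5.17-fold and rose 2.41-fold. Their relative Zic1 was instead higher in the OCT4 arm only, at 0 and 0.880 CPM with DMSO and 11.5 and 11.9 CPM with dTAG. The WT libraries held 0.588 to 0.971 CPM of Zic1, and its SE in the LIF arm was 0.61.

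**Figure D2:**
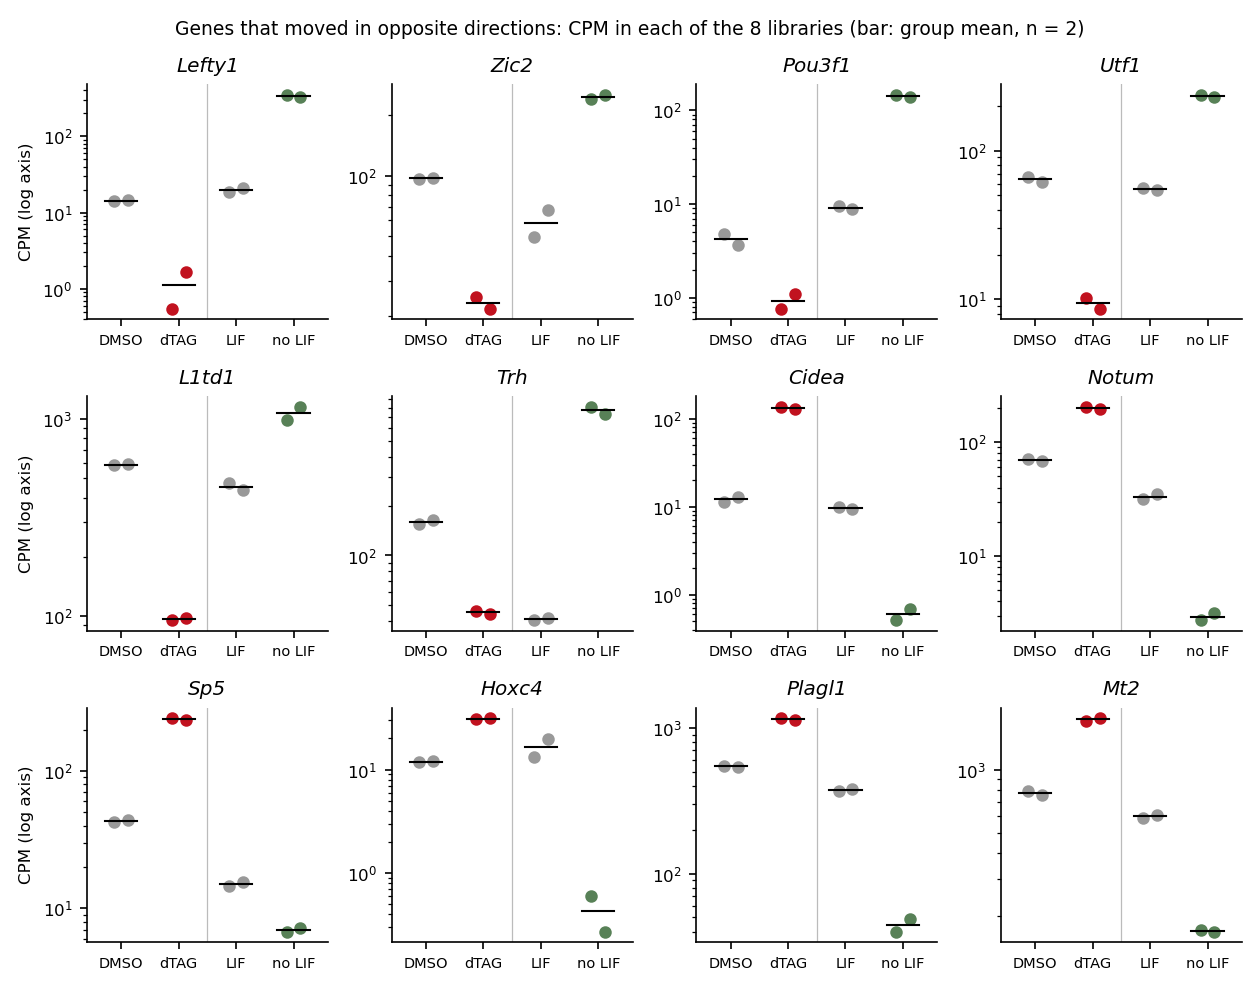
CPM in each of the 8 libraries (log axis) for genes that changed at least 2-fold in opposite directions, from Lefty1 to Trh lower and from Cidea to Mt2 higher with dTAG; points are libraries and bars group means. For Lefty1 the dTAG libraries lie at 0.547 and 1.66 CPM and those without LIF at 347 and 324 CPM, on either side of the controls.

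Some general pluripotency genes fell with OCT4 degradation and rose without LIF. Of 20 tested, 6 were called in opposite directions and 8 in one direction, against 10.6% and 20.8% of tested genes. At 2-fold or more, 4 moved this way (0.941% of tested genes), while 5 fell in both arms and 1 rose in both. Utf1, a chromatin-bound factor of ES cells, was read at 66.8 and 61.2 CPM with DMSO, 10.3 and 8.65 with dTAG, 56.1 and 54.0 with LIF and 236 and 231 without LIF, a 6.71-fold fall and a 4.24-fold rise (log2 difference -4.83, SE 0.13, adjusted p = 1.0e-20). L1td1, an RNA-binding protein of pluripotent cells, had 583 and 591 CPM with DMSO, 95.4 and 97.9 with dTAG, 472 and 435 with LIF and 985 and 1157 without LIF. Foxd3, a forkhead factor needed for pluripotency, fell 12.9-fold and rose 2.30-fold. The control groups of Utf1, L1td1 and Foxd3 were 1.15-fold, 1.29-fold and 1.23-fold apart, so the arms parted from similar levels. Sox1, a neural plate factor, held 53 reads with DMSO and 5 with dTAG, a 10-fold fall, and 365 with LIF and 803 without, a 2.30-fold rise. Sox3, its relative, held 15 reads over the DMSO and 4 over the dTAG libraries against 37 with and 917 without LIF. Its fall in the OCT4 arm was lost in DESeq2 (adjusted p = 0.083), without either DMSO library (0.12 and 0.054) and without the second dTAG library (0.24), while its difference held in all settings run.

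Nodal signalling genes also parted. Nodal signals through activin receptors with Tdgf1 (Cripto) as co-receptor, and switches on its own inhibitors Lefty1 and Lefty2. Lefty1 was read at 14.0 and 14.4 CPM with DMSO, 0.547 and 1.66 with dTAG, 18.8 and 20.9 with LIF and 347 and 324 without LIF, a 12.8-fold fall and a 17.0-fold rise (log2 difference -7.77, SE 0.24, adjusted p = 2.0e-19). Tdgf1 had 601 and 604, 45.5 and 54.2, 664 and 761, and 1143 and 1136 CPM in the same order; it fell 12.1-fold and rose 1.60-fold, with both changes called. Nodal itself fell 1.68-fold and rose 2.28-fold. Of the 18 tested targets of TGF-beta, Nodal and BMP, 7 were called in both arms in opposite directions, against 10.6% of tested genes, and 6 in the same direction, against 20.8%. Lefty2, which fell in both arms, was one of those 6.

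At a mean of at least 5 CPM, the leading genes of this class by the smaller change were, besides Lefty1, Mmp2, Wt1 and Foxr2. Mmp2, Wt1 and Foxr2 were read at a few CPM or less in controls and reached that mean through the libraries without LIF. Mmp2, the gelatinase that cuts basement membrane collagen, held 20 reads over the DMSO libraries and 2 over the dTAG libraries, a 9.82-fold ratio (exact interval 2.39 to 86.7), and rose 29.8-fold without LIF. Wt1, a zinc-finger factor of kidney and gonad, held 10 reads with DMSO and 1 with dTAG (ratio 9.82, interval 1.40 to 426) and rose 47.8-fold without LIF. Its call in the OCT4 arm was lost in DESeq2 (adjusted p = 0.11), without the second DMSO library (0.063) and without the first dTAG library (0.16). Foxr2, a forkhead gene, held 12 reads with DMSO and 0 with dTAG, at least 3.93-fold higher with DMSO against a floor of 3 reads over the group, and rose 7.81-fold without LIF. Better-counted members were Trh, the thyrotropin-releasing hormone gene (157 and 164 CPM with DMSO, 45.6 and 44.1 with dTAG, 40.2 and 41.5 with LIF, 813 and 733 without LIF), and Notch3, a Notch receptor, which fell 2.09-fold and rose 5.14-fold. Cd24a, a surface glycoprotein, fell 2.07-fold and rose 4.91-fold, and Ddx58 (RIG-I), a sensor of foreign RNA, fell 4.25-fold and rose 2.77-fold. The amino acid transporter Slc7a3 and the ERK phosphatase Dusp5 belonged here too, on few reads: the fall of Slc7a3 in the OCT4 arm was lost without 1 of 3 libraries (adjusted p = 0.051 to 0.076) and that of Dusp5 in DESeq2 (0.062) and without 1 of 3 libraries (0.072 to 0.15).

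Genes that rose with OCT4 degradation and fell without LIF included 4 of 17 tested HOX genes and 2 of 22 tested Wnt targets, against 1.07% of tested genes. Of 13 tested preimplantation genes 1, Khdc1a, was in this class, while 5 fell at least 2-fold in both arms. Metallothioneins and some metabolic genes were also members. Among the members with the largest shared size of change were Cidea, Gad1 and Khdc1a. Cidea is a lipid-droplet protein, Gad1 makes the transmitter GABA, and Khdc1a is of a family expressed in oocytes and early embryos. Cidea was read at 11.4 and 12.8 CPM with DMSO, 136 and 128 with dTAG, 9.80 and 9.41 with LIF and 0.512 and 0.682 without LIF, a 10.8-fold rise and a 16.3-fold fall. Khdc1a went from 10.2 and 10.6 to 53.8 and 56.8 CPM with dTAG, and from 77 to 0 reads when LIF was withdrawn, a fall of at least 24.7-fold. Gad1 rose 11.5-fold and fell 6.31-fold. It held 26 reads with DMSO, 297 with dTAG, 54 with LIF and 8 without LIF. Its mean of 5.21 CPM was reached through the dTAG libraries, and its SE in the LIF arm was 0.44. Gpx2, a glutathione peroxidase, was read at 58.1 and 60.5, 229 and 225, 55.7 and 61.4, and 2.48 and 3.14 CPM in the order DMSO, dTAG, LIF and no LIF. The metallothioneins Mt1 and Mt2, which bind zinc and other metals, moved together: 2.21-fold and 2.26-fold up, and 2.77-fold and 3.52-fold down. Grhl3 and Sp6, epithelial transcription factors, rose 2.41-fold and 7.55-fold and fell 4.81-fold and 3.36-fold.

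Wnt signalling stabilises beta-catenin, which acts with TCF and LEF factors on targets that include its own inhibitors. Of 22 tested Wnt targets, 13 were called higher in the OCT4 arm and 2 lower, against 20.1% and 20.3% of tested genes. In the LIF arm 7 were higher and 7 lower, near the 34% and 34.4% of all tested genes. The difference was higher for 13 and lower for 6, against 28.6% and 26.4%, with a median of 1.96 on the log2 scale against 0.02 over all tested genes. Notum, a secreted enzyme that inactivates Wnt proteins, was read at 71.0 and 68.1 CPM with DMSO, 205 and 197 with dTAG, 31.4 and 34.8 with LIF and 2.73 and 3.14 without LIF, a 2.90-fold rise and an 11.4-fold fall. Axin2, a scaffold of the complex that destroys beta-catenin, went from 162 and 148 to 850 and 806 CPM with dTAG and from 91.5 and 86.8 to 49.3 and 55.0 CPM without LIF; it rose 5.35-fold and fell 1.73-fold, short of 2-fold. Sp5, a zinc-finger repressor downstream of Wnt, had 42.8 and 44.2, 243 and 237, 14.6 and 15.5, and 6.74 and 7.23 CPM in the same order. Its promoter is shown because it holds the TCF/LEF element CTTTGATC (in capitals), 104 bases before the start site, at chr2:70474795-70474850 of GRCm38.p6 (plus strand).
Sp5: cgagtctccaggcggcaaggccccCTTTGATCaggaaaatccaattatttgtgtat
The element was found in 1.09% of genes in the promoter table and in 0.77% of tested genes with a promoter there. It was found in 2 of 87 such genes (2.30%) up with OCT4 degradation and down without LIF. In the other classes it was found in 0 to 1.60% of such genes. Notum, Axin2 and Sp5 had higher control levels in the tagged line. Not all Wnt targets took this course: T (Brachyury), a mesoderm factor, was 33.5-fold higher in the LIF arm only, and Cdx1 was 33.3-fold lower there and 1.39-fold lower in the OCT4 arm.

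**Figure D3:**
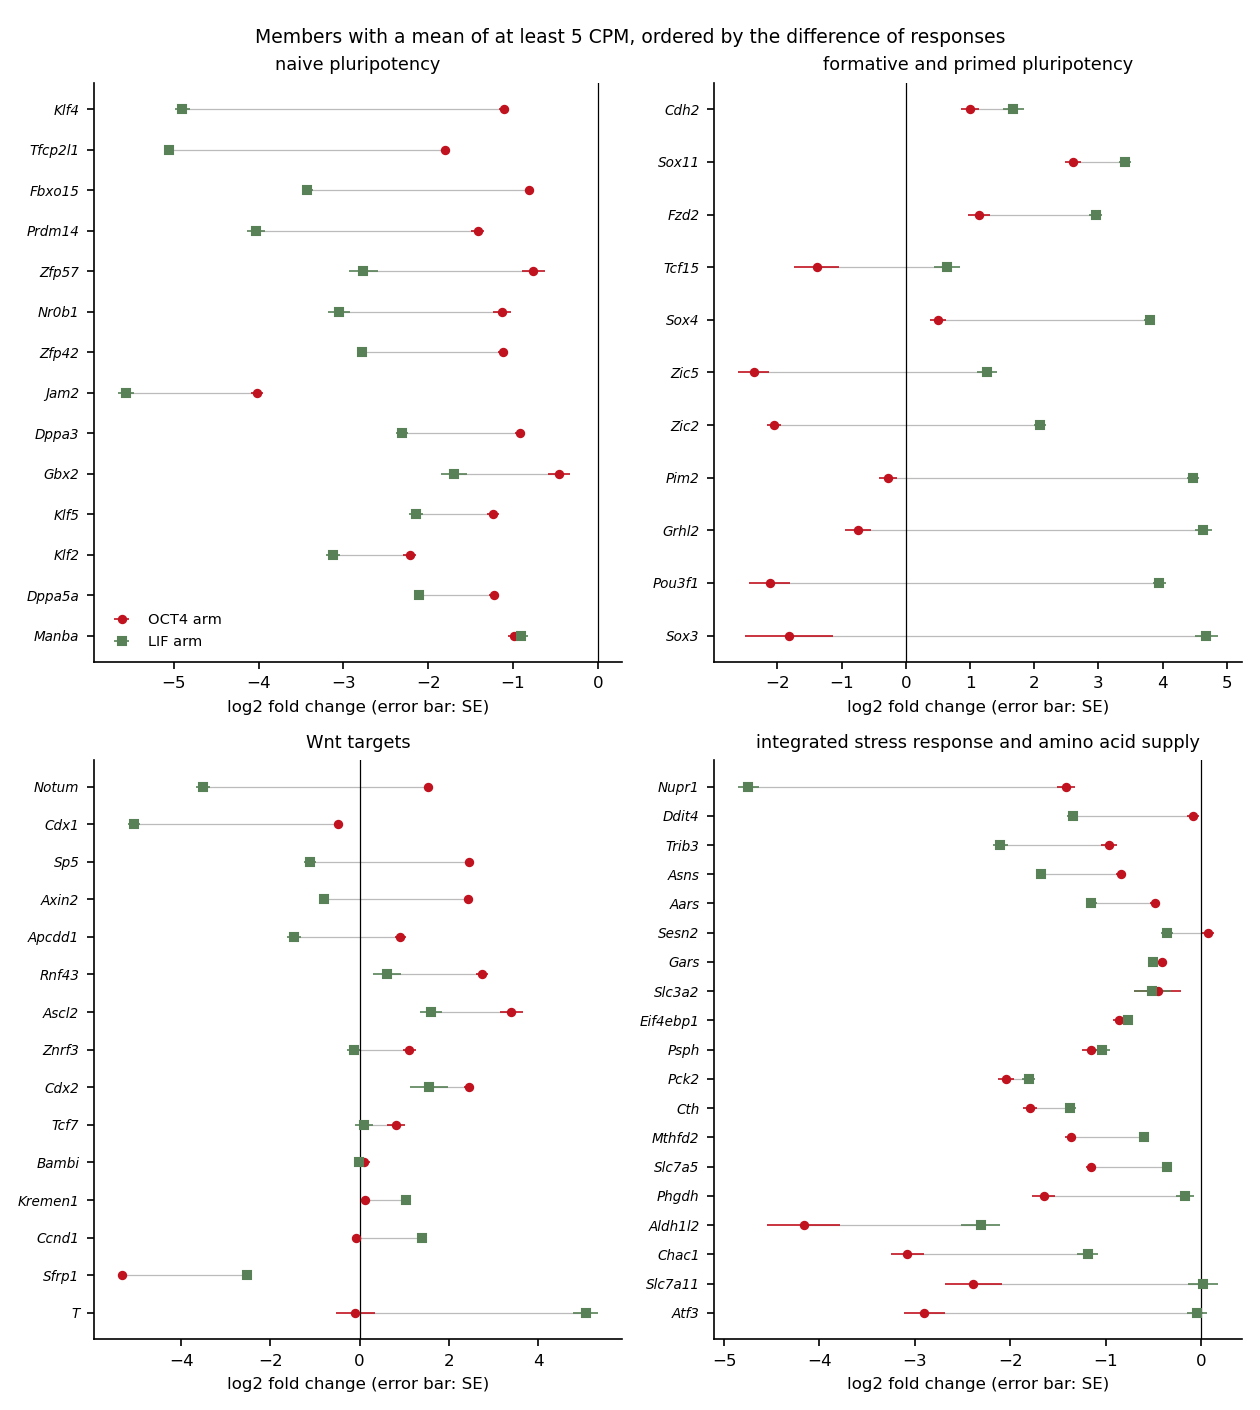
Log2 fold change with its SE in the OCT4 arm (circles) and the LIF arm (squares) for the members of 4 lists with a mean of at least 5 CPM, ordered by the difference of responses. The naive genes shown lie left of 0 in both arms, Zic2, Zic5, Pou3f1 and Sox3 on opposite sides, and stress response genes mostly left of 0 in both, from Nupr1 with the larger fall in the LIF arm to Atf3 with the larger fall in the OCT4 arm.

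HOX genes, which pattern the body axis, parted in 1 direction: of 17 tested, 12 had a difference called higher and 0 lower, against 28.6% and 26.4% of tested genes. In the LIF arm 14 were called lower and 0 higher, against 34.4% and 34%, and in the OCT4 arm 6 higher and 4 lower, the latter near the 20.3% of all tested genes. Hoxc4 was read at 11.8 and 12 CPM with DMSO, 30.5 and 31.3 with dTAG, 13.2 and 19.9 with LIF and 0.598 and 0.273 without LIF, a 2.60-fold rise and a 33.4-fold fall. Hoxb9 rose 2.76-fold and fell 4.92-fold. Hoxc5 rose 4.61-fold and went from 62 to 0 reads when LIF was withdrawn, a fall of at least 19.9-fold. Hoxc8, with 11 reads with LIF and 1 without, rose 3.89-fold in the OCT4 arm; its fall in the LIF arm was lost in DESeq2 (adjusted p = 0.071), without the first library with LIF (0.15) and without either library lacking LIF (0.051 and 0.087).

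Cdkn1a (p21), an inhibitor of cyclin-dependent kinases, had 1.97 and 4.58 CPM with DMSO, 12.6 and 10.1 with dTAG, 7.24 and 6 with LIF and 0.939 and 0.818 without LIF, a 3.21-fold rise and a 7.40-fold fall. Among other p53 targets, Phlda3 rose 2.51-fold in the OCT4 arm and fell 1.27-fold in the LIF arm, with both changes called. Btg2 rose 2.29-fold and 1.15-fold. Pmaip1 (Noxa), a cell-death gene, rose 5.90-fold in the LIF arm; its 1.39-fold fall in the OCT4 arm was lost without the second DMSO library (adjusted p = 0.12). Of 18 tested p53 targets, 7 were called higher and 4 lower in the OCT4 arm, against 20.1% and 20.3% of tested genes, and 5 and 7 in the LIF arm, near the 34% and 34.4% of all tested genes. The difference was called higher for 9 and lower for 4, against 28.6% and 26.4%, and 4 were called in opposite directions, against 10.6%. Imprinted genes, expressed from 1 parental copy, were found in several classes. Of 19 tested, 4 rose at least 2-fold in both arms (2.57% of tested genes), 5 rose in the LIF arm only (5.22%) and 2 rose with OCT4 degradation and fell without LIF (1.07%). Plagl1, an imprinted zinc-finger gene, was read at 548 and 543, 1167 and 1142, 370 and 378, and 39.9 and 48.8 CPM in the order DMSO, dTAG, LIF and no LIF, a 2.12-fold rise and an 8.56-fold fall (adjusted p of the difference 4.9e-22). Slc38a4, an imprinted amino acid transporter, rose 5.94-fold; its 2.46-fold fall was lost in DESeq2 (adjusted p = 0.091), without the first library with LIF (0.067) and without the first lacking LIF (0.34). Bhmt, which makes methionine from betaine, rose 3.11-fold and went from 224 reads with LIF to 1 without, a 215-fold ratio (exact interval 38.2 to 8537). Scd1, which desaturates fatty acids, went from 1213 and 1169 to 2116 and 2053 CPM with dTAG and from 1505 and 1623 to 395 and 413 CPM without LIF, a 1.75-fold rise and a 3.87-fold fall, and its relative Scd2 rose 1.51-fold and fell 2.20-fold.

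Genes of several kinds changed in the OCT4 arm only. Msx1, a homeobox gene of early ectoderm and mesoderm, was read at 2.95 and 2.38 CPM with DMSO, 55.6 and 57.9 with dTAG, 4.15 and 4.35 with LIF and 3.67 and 3.41 without LIF. It rose 21.7-fold, with a log2 change of -0.25 (SE 0.22, adjusted p = 0.35) in the LIF arm. Pdlim4, an actin-binding LIM protein, went from 6.18 and 5.72 to 53.2 and 47.0 CPM with dTAG. Prr15 held 58 reads over the DMSO and 559 over the dTAG libraries, but only 11 with LIF and 8 without. Its SE in the LIF arm was 0.60, so its change there was not resolved, and its control levels were 5.54-fold apart. Prr15 rose 9.80-fold and Tmem151b 4.67-fold; without the first library with LIF or the second lacking it, Tmem151b was also called in the LIF arm (adjusted p = 0.044 and 0.047). Fos, an immediate early factor, rose 7.91-fold and Mogat2, an enzyme of triglyceride synthesis, 6.47-fold. Med12, a subunit of the Mediator kinase module, was read at 130 and 126 CPM with DMSO, 305 and 288 with dTAG, 138 and 135 with LIF and 142 and 158 without LIF. It was the 1 member among 30 tested Mediator and coactivator genes to change at least 2-fold in the OCT4 arm only. Over all tested genes 0.708% rose and 0.853% fell in that arm only, so 1 gene gives no result about the list. The small rise of Med12 without LIF (log2 0.13) was called with other size factors (adjusted p = 0.020 and 0.029). Without the first library lacking LIF this rise was 0.22.

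On the side of OCT4-only falls, Olig2, a factor of motor neuron and oligodendrocyte precursors, stood at 18.2 and 16.8 CPM with DMSO, 0.109 and 0 with dTAG, 20.2 and 21.6 with LIF and 20.1 and 21.3 without LIF. Its 321 reads with DMSO against 1 with dTAG amount to a 315-fold ratio (exact interval 56.2 to 12489), and the 4 WT libraries lay together. Nphs1, the slit diaphragm protein nephrin, held 5.19 and 6.86 CPM with DMSO and 0.328 and 0.222 with dTAG, against 15.1 to 17.3 CPM in the 4 WT libraries. Nptx2, a neuronal pentraxin, fell 7.15-fold; its 1.25-fold rise without LIF was not called in DESeq2 (adjusted p = 0.16) or without 1 of 2 libraries (0.065 and 0.46). Rbfaos, an antisense transcript, went from 27.0 and 24.4 to 0.219 and 0.887 CPM with dTAG. It stood at 1.68 and 2.00 CPM with LIF and 1.02 and 1.91 without LIF, and the control levels were 14.0-fold apart. A fall from the WT control level was thus hard to detect at this depth. The strand setting of the counting is unknown, so its reads may belong to the gene across from it. Mycn, the MYC family member of ES cells, was read at 190 and 177 CPM with DMSO, 62.6 and 61.3 with dTAG, 183 and 182 with LIF and 183 and 169 without LIF. Gdf3, a TGF-beta family ligand of pluripotent cells, fell 2.87-fold, Epha2, an ephrin receptor, 4.34-fold, and Ccn2, a matrix protein and YAP target, 6.41-fold. Jup (plakoglobin), a junction protein, fell 2.33-fold and Spry2, a feedback inhibitor of ERK signalling, 2.33-fold.

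LIF withdrawal alone moved many more genes. By size of the difference at a mean of at least 5 CPM, its leading rises were those of F5, Anxa3, Pdlim3 and Igf2. F5, coagulation factor V, held 597 reads without LIF and 1 with LIF, a 621-fold ratio (exact interval 111 to 24587), and 5 and 4 reads with DMSO and dTAG. Anxa3, an annexin, was read at 71.2 and 71.4 CPM without LIF and at 0.353 to 1.23 CPM in the other 6 libraries. Igf2, the imprinted fetal growth factor, had 43.3 and 52.2 CPM without LIF and at most 0.657 CPM elsewhere. Pdlim3, a muscle LIM protein, held 60.1 and 54.1 CPM without LIF and 4, 3 and 6 reads with DMSO, dTAG and LIF. Its difference was lost without the second DMSO library (adjusted p = 0.95), which leaves 0 reads on that side. F5, Anxa3, Pdlim3 and Igf2 reached the mean of 5 CPM through the libraries without LIF. Their SE in the OCT4 arm was 0.89, 0.48, 1.03 and 0.74 on the log2 scale, so whether they changed there was not detectable at this depth. Actin and contractile genes were prominent: of 25 tested targets of SRF and YAP, 12 rose at least 2-fold in the LIF arm only, against 5.22% of tested genes, and 19 had a difference called lower, against 26.4%. Acta2, smooth muscle actin, was read at 128 and 125 CPM without LIF and at 0.140 to 0.766 CPM in the other 6, with an SE of 0.61 in the OCT4 arm. Cnn2, a calponin, rose 13.2-fold and Vcl, the focal adhesion protein vinculin, 3.16-fold, with log2 changes of -0.18 and -0.24 in the OCT4 arm. Of the 13 tested fibroblast and feeder markers, 11 were also called higher without LIF, against 34% of tested genes, and their part in the rise of contractile genes was not tested.

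Most genes on the list of FGF and ERK feedback, which holds feedback inhibitors and other genes of the pathway, rose with LIF withdrawal. The MEK inhibitor in 2i blocks that pathway. Of 18 tested, 16 were called higher and 1 lower in the LIF arm, against 34% and 34.4% of tested genes. In the OCT4 arm 3 were called higher and 5 lower, near the 20.1% and 20.3% of all tested genes. Dusp6, the ERK phosphatase, was read at 11.1 and 12.1 CPM with DMSO, 11.4 and 13.1 with dTAG, 8.21 and 6.47 with LIF and 327 and 333 without LIF, a 44.2-fold rise (log2 change 0.07, SE 0.14, in the OCT4 arm). Il17rd (Sef), which holds ERK outside the nucleus, rose 3.75-fold there and fell 1.44-fold in the OCT4 arm. Pim2, a kinase of the formative list, rose 22.3-fold, and Ccnd1 (cyclin D1) 2.64-fold.

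Some targets of LIF signalling were at least 2-fold lower in the LIF arm only. Of 18 tested LIF and STAT3 targets this held for 4, against 6.55% of tested genes, and 3 fell in both arms, against 3.89%. Without LIF 10 were called lower and 6 higher, against 34.4% and 34% of tested genes. Socs3, the STAT3-induced inhibitor of the LIF receptor complex, was read at 179 and 173 CPM with DMSO, 225 and 228 with dTAG, 258 and 255 with LIF and 27.1 and 28.9 without LIF, a 1.28-fold rise and a 9.22-fold fall, both called. Bcl3, an NF-kB partner and STAT3 target, fell 1.37-fold in the OCT4 arm and 22.4-fold in the LIF arm. By size of the difference the leading falls included those of Grin1, Htr5a and Mst1. Grin1, an NMDA receptor subunit, went from 141 to 0 reads when LIF was withdrawn, a fall of at least 45.1-fold, and held 148 and 124 reads with DMSO and dTAG. Htr5a, a serotonin receptor, held 335 and 1 reads (ratio 322, interval 57.4 to 12748), and Mst1, a hepatocyte-growth-factor-like protein, 352 and 2. In the OCT4 arm none of Grin1, Htr5a and Mst1 was called. Basement membrane genes were mixed. Of 16 tested, 5 fell at least 2-fold in the LIF arm only, against 6.55% of tested genes, while 2 rose at least 2-fold in both arms. In the LIF arm 7 were called higher and 8 lower, and the difference was called higher for 8 and lower for 2, against 28.6% and 26.4% of tested genes. Lamb2, a laminin chain, had 145 and 144, 184 and 167, 227 and 205, and 39.6 and 40.8 CPM in the order DMSO, dTAG, LIF and no LIF; its small rise with dTAG was lost without the first dTAG library (adjusted p = 0.073). Nid1 (nidogen), which links laminin to collagen, fell 1.87-fold and 13.7-fold, whereas Col4a2, a collagen IV chain, rose 1.99-fold and 27.2-fold. Vim (vimentin) rose 1.40-fold in the OCT4 arm and fell 3.18-fold in the LIF arm. Of 20 tested interferon response and antigen presentation genes, 15 were called higher and 4 lower without LIF, against 34% and 34.4% of tested genes. In the OCT4 arm 1 was called higher and 6 lower, against 20.1% and 20.3%. Oas1a, an interferon-induced enzyme, was one of the 4 that fell without LIF, with a 26.3-fold fall. Ncoa3, a nuclear receptor coactivator, fell 2.20-fold in the LIF arm only; its 1.11-fold rise in the OCT4 arm was lost without any 1 of the 4 libraries of that arm (adjusted p = 0.071 to 0.21). Smo and Gli3, the transducer and a transcription factor of hedgehog signalling, rose 3.70-fold and 4.12-fold without LIF, against 1.20-fold and 1.48-fold with dTAG. The small rise of Smo was lost in DESeq2 (adjusted p = 0.12) and without 1 of 6 libraries (0.052 to 0.27). Aldh1a3, which makes retinoic acid, fell 20.3-fold without LIF; its 1.53-fold fall with dTAG was lost in DESeq2 (adjusted p = 0.15) and without the second dTAG library (0.068). Nefl, a neurofilament chain, rose 2.86-fold and Lamc1, a laminin chain, fell 2.52-fold without LIF, both short of 2-fold change in the OCT4 arm.

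Most genes of the respiratory chain and ATP synthase, of the cytosolic ribosome and of G2 and mitosis were in none of the 8 classes. This held for 43 of 44, 70 of 70 and 20 of 20 tested members, against 78.2% of tested genes. Of 44 tested subunits of the respiratory chain and ATP synthase, 29 were called lower in the LIF arm, against 34.4% of tested genes. In the OCT4 arm 8 were called lower, near the 20.3% of all tested genes. The difference was called higher for 23 and lower for 2, against 28.6% and 26.4%. Cox6a1, a cytochrome oxidase subunit, was read at 250 and 238 CPM with DMSO, 245 and 250 with dTAG, 295 and 259 with LIF and 143 and 137 without LIF. Cytosolic ribosomal protein genes parted little: 7 of 70 had a difference called higher and 7 lower, against 28.6% and 26.4% of tested genes, the largest by adjusted p being those of Rpl13a (0.42 on the log2 scale) and Rps20 (0.35). Of 20 tested genes of G2 and mitosis, 14 had a difference called lower and 0 higher, against 26.4% and 28.6% of tested genes, by a median of -0.36. Cdk1, the mitotic kinase, went from 530 and 550 to 445 and 451 CPM with dTAG and from 414 and 429 to 575 and 568 CPM without LIF, a 1.21-fold fall and a 1.36-fold rise. Cdc20, which activates the ligase that ends mitosis, rose 1.44-fold without LIF, and Cdk6, a G1 kinase, fell 1.77-fold with dTAG and rose 1.5-fold without LIF. Tdh, the threonine dehydrogenase on which mouse ES cells rely, fell in both arms, 1.92-fold and 12.4-fold, while Gldc, of the glycine cleavage system, fell 1.59-fold and rose 2.43-fold. Of 22 tested glycolysis and hypoxia genes, 13 were in none of the classes. The difference was called higher for 5 of the 22 and lower for 10, against 28.6% and 26.4% of tested genes. In glycolysis, Tpi1 fell 1.18-fold and rose 1.65-fold, and Pfkp fell in both arms, 2.47-fold and 15.3-fold. Hspb1, a small heat shock protein, fell 1.92-fold in the LIF arm. The germline genes Rpl10l, a ribosomal protein copy, and Hsf2bp, of meiotic recombination, fell in both arms, 1.87-fold and 19.2-fold, and 1.77-fold and 6.96-fold. Rpl10l is a retrocopy of a highly expressed gene, so reads from near-identical copies may be counted in it.

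**Figure D4:**
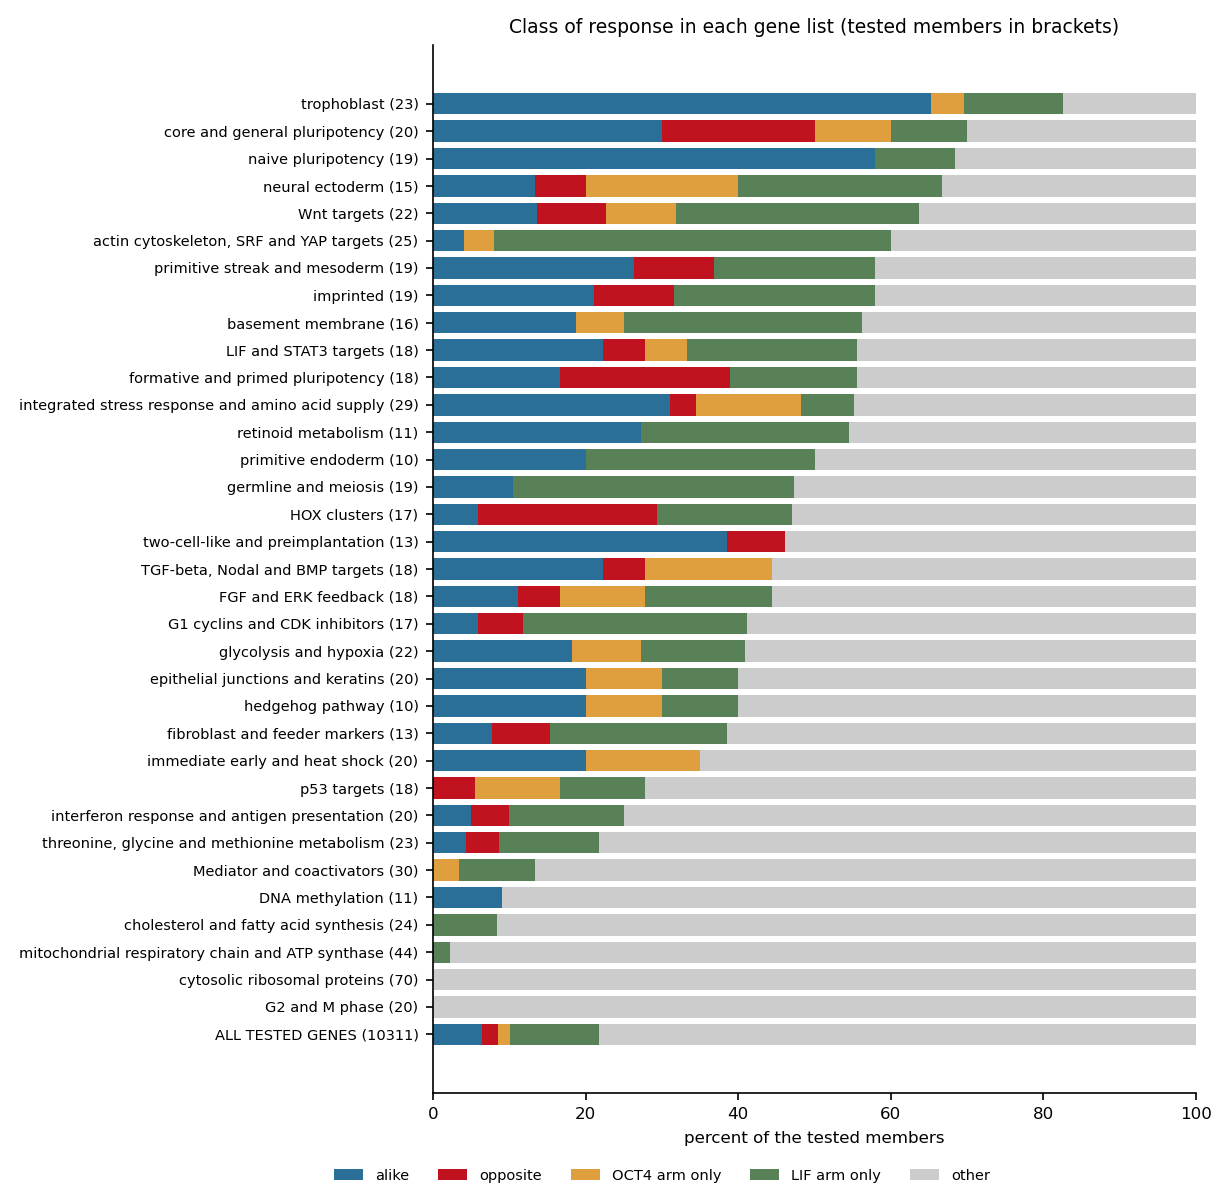
Stacked bars give the percent of the tested members of 34 gene lists in each class, with all 10311 tested genes at the foot. Trophoblast and naive genes have the longest bars for moving alike, HOX and formative genes for moving oppositely, and ribosomal protein and G2 and mitosis genes have no member in any class.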

How the data were processed

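RNA was sequenced from 8 libraries with a stranded poly(A) kit, per the labels' protocols; HISAT2, HTSeq and build mm9 are named, without versions, per the submitters' processing notes. Its strand setting is not given there. In the deposited files the authors give unnormalised counts of reads for 41565 RefSeq accessions; reads in the no-feature line were 10.4% to 14.9% and ambiguous reads 42.5%, and both stayed out of library sizes. Accessions were named through RefSeq tables and counts summed over the accessions of a symbol (24921 symbols, 16931 with 1 accession). The design had assumed counts per gene; the test was unchanged.

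All 8 libraries entered 1 edgeR (4.0.16, R 4.3.3) quasi-likelihood fit of 4 group means with TMM scaling and filterByExpr, with 4 residual degrees of freedom. P-values were adjusted by Benjamini-Hochberg over 10311 genes within each of 3 contrasts and called at 0.05; SE is the absolute log2 change divided by the square root of F. Folds are fitted values. CPM is the count scaled to a common library total. Against a group with 1 to 3 reads the ratio has an exact 95% interval, and against 0 reads a floor of 3 reads over the group was used; both cover counting error only. Counts simulated from these libraries recovered 70% of 2-fold and 90% of 4-fold differences of responses, 100 genes each among 10310, with 4 false calls. The simulation gave all groups the same means and all genes 1 spread, and changed genes in the dTAG group only. Recovery under the widespread changes and unequal controls of these data was not tried. Replicates correlated at 0.992 to 0.993 and differed beyond sampling noise (chi-square per degree of freedom 1.80 to 4.76).

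Named genes were the 4 of mean CPM of at least 5 with the largest shared change or difference in each class, with treated and control libraries apart, the 2 of smallest adjusted p of the difference in each of 34 lists, list members that moved oppositely, and further examples. Members and lists were chosen with earlier results of these data known. Alternatives were RLE and upper-quartile scaling, DESeq2 (1.42.0), 2 filters, genes with 1 accession, a replicate block, leaving out each library, and other class thresholds. Nanog and Esrrb could not be tested. Some genes that meet the rule are not reported here.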

Additional observations from a re-analysis of the deposited data

How the results depend on the processing

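The counts of genes with a called difference, and of all 8 classes, stayed within 1.5 times of the values given. This held under RLE and upper-quartile scaling, DESeq2, both filters, restriction to genes with 1 accession and the replicate block. Membership of the classes varied more than their counts. Of the genes of a class, DESeq2 kept 65.9% (down in the OCT4 arm only) to 83.3% (up in the LIF arm only). The filter of 5 CPM in 2 libraries kept 68.1% (down in both arms) to 87.7% (up in the OCT4 arm only). RLE scaling kept 92.7% (down in the LIF arm only) to 100% (up in both arms). DESeq2 called 2169 genes higher and 2308 lower, and its classes held 213 (up in both arms), 325 (down in both), 90 and 70 (opposite), 54 and 63 (OCT4 arm only) and 497 and 527 genes (LIF arm only).

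A change of at least 1.5-fold in place of 2-fold gave 458 genes up and 670 down in both arms, 231 up with OCT4 degradation and down without LIF, 174 of the reverse, 187 up and 157 down in the OCT4 arm only and 911 up and 1122 down in the LIF arm only. A bound of 0.3 on the other arm left 42 up and 55 down in the OCT4 arm only and 354 up and 441 down in the LIF arm only. Both follow from how the classes are built.

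With 1 library left out, the difference called 2670 to 2933 genes higher and 2310 to 2868 lower; the lone library of its group is then assumed to vary like the others. The classes held 228 to 263 and 364 to 406 genes (alike), 99 to 111 and 79 to 100 (opposite), 63 to 84 and 70 to 87 (OCT4 arm only), and 446 to 562 and 610 to 676 (LIF arm only).

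With the replicate number as a block, 2911 genes were called higher and 2678 lower in the difference. Same-numbered libraries did not deviate together (correlations of -0.01 to 0.05), so the numbers were not taken to pair the libraries.

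Of the named genes' values under all alternatives, the difference of responses kept its direction and its side of the threshold in 1622 and changed side in 2. The LIF arm kept both in 1609 and changed side in 15, the OCT4 arm in 1590 and 34. No direction was reversed. Calls that rest on a few reads in 1 group, such as those of Sox3, Wt1, Slc7a3 and Hoxc8, are limited by depth.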
